A study of Mus musculus with 4 samples.

Results

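The 10 genes described here are read in the liver as markers of hepatocytes around the central vein, or as parts of the Wnt pathway that acts there: Glul, Oat, Slc1a2 and Rhbg of nitrogen handling, the cytochrome P450 genes Cyp2e1 and Cyp1a2, and the Wnt pathway genes Axin2, Lgr5, Rnf43 and Tbx3. They were chosen by gene symbol, as all gene probes of the array that carry one of these symbols in the scanner files and not by a threshold on a measured value. All 10 genes were on the array, with 15 of its 39392 usable probes, among 30439 genes or transcripts.

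RNA was from whole livers of male C57BL/6J mice fed a high-fat diet (HFD) for 24 weeks, on 4 one-color Agilent arrays with 1 array for each group. By the study's description, Cont livers were from littermates that carry the floxed Drp1 allele on both chromosomes without Cre. Drp1LiKO livers were from Drp1 flox/flox mice with 1 copy of Alb-Cre, whose albumin promoter drives Cre in hepatocytes. The sample labels themselves read wild type and knockout. On that description all 4 groups shared the floxed allele, besides the diet and the sex. The refed groups were fasted for 17 h and then fed for 4 h. The labels of the other pair of livers name no feeding state, and these are called fasted from the study's description of its experiment. The series' own design text describes mice that were fasted and then refed and mentions no group left fasted, and the labels give the raw data of these 2 arrays as shared with earlier submissions. Every value called fasted, and every refeeding difference, rests on that reading. Drp1, encoded by Dnm1l, is the GTPase that divides mitochondria. Age at death was not given in the sources used here beyond the age of 4 weeks at which the diet began, nor whether a liver RNA came from 1 mouse or a pool.

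Hepatocytes along the path from the portal vein to the central vein carry out different tasks, an arrangement called zonation. Endothelial cells of the central vein secrete Wnt ligands and an R-spondin, which stabilise beta-catenin in the nearest hepatocytes, and beta-catenin with Tcf factors then switches on pericentral genes. Pericentral cells take up ammonium that escaped the urea cycle and make glutamine from it, and they hold most of the P450 enzymes that oxidise foreign compounds, whereas periportal cells run the urea cycle and make glucose.

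Sequences upstream of the gene start are given for 4 members, since Tcf factors bind DNA near a CTTTGA core. A further reason was that 3 of these genes (Glul, Cyp2e1 and Slc1a2) had the same order of levels over the arrays. That order held on the probe read for each gene and with the main scaling, and not on the other probes of Cyp2e1 and Slc1a2. It was also lost after quantile normalization, which makes the signal distributions of all arrays alike. The refeeding difference in Drp1LiKO was then -0.10 for Glul and -0.27 for Cyp2e1 but 0.44 for Slc1a2. The sequences are the 250 bases before the start, from RefSeq in the GRCm38.p6 build. They are written 5′ to 3′ on the gene's strand, with CTTTGA or its complement TCAAAG in capitals.
Glul chr1:153899679-153899928 (+ strand): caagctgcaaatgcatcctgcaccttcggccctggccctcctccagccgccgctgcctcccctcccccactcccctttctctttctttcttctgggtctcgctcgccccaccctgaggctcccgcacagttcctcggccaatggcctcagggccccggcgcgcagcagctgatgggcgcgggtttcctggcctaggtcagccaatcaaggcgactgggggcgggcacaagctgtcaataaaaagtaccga
Cyp2e1 chr7:140763569-140763818 (+ strand): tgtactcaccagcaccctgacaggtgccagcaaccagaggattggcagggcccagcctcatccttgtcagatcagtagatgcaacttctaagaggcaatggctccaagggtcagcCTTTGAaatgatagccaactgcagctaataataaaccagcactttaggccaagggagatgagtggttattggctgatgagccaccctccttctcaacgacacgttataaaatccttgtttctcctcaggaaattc
Cyp1a2 chr9:57683656-57683905 (- strand): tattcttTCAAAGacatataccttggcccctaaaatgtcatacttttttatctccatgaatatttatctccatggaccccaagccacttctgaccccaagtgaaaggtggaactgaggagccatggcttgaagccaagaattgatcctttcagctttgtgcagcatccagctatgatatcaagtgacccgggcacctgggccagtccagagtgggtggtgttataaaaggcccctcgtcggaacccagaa
Slc1a2 chr2:102706188-102706437 (+ strand): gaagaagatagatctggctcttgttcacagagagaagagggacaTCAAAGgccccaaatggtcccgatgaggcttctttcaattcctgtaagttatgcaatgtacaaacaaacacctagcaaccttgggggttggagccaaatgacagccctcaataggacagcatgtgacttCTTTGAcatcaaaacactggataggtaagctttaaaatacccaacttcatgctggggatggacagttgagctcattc
Of the 10 genes, 7 had such windows (8 in all, since Rnf43 had a pair of them), and 3 of the 8 windows held the motif on either strand, those of Cyp2e1, Cyp1a2 and Slc1a2. Among all 32851 windows, 13.8% held it. The other windows, Glul and Axin2 included, lack these letters in this stretch, and nothing beyond the letters was read from them. Windows for Lgr5, Rhbg and Tbx3 were not used here.

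Signals are given relative to the 75th percentile of gene spots of the same array, so that 1 is that percentile, and a difference is the log2 ratio of such values. The error is the standard error (SE) of measurement from the scanner's error model, about 0.20 on the log2 scale, which holds no difference between mice. A gene was called at a difference of at least 2-fold with the brighter signal well above background. The 75th percentile was 461 in Cont fasted, 722 in Drp1LiKO fasted, 357 in Cont refed and 526 in Drp1LiKO refed, and between 48.7% and 58.2% of gene spots were well above background. No spot was saturated. Of the 30439 genes, 18963 had a signal above background by the scanner's criterion in 1 array or more and are called measured, among them all 10 members. Axin2 alone among the members missed that criterion in some arrays. Dnm1l had a difference of -0.21 (SE 0.20) in the fasted and -0.12 (SE 0.20) in the refed pair, and whether its probe lies in the deleted part was not known, so it does not check the genotype. All 8 hepatocyte markers were well above background on every array, as the labelled tissue would have. Their summed relative signal was 3152 in Cont fasted, 2112 in Drp1LiKO fasted, 3659 in Cont refed and 2599 in Drp1LiKO refed.

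Relative to the 75th percentile of their arrays, Drp1LiKO livers had lower signals of 5 members (Glul, Cyp2e1, Oat, Slc1a2 and Lgr5) and a higher one of Rhbg in both feeding states, each by more than 2 SE. The share of all genes past 2 SE was not determined, nor the share whose Drp1LiKO and Cont arrays did not overlap. Whether either count is unusual was therefore not tested. Ranked among all genes from the lowest difference up, these 5 stood between 3.997% (Slc1a2) and 15.99% (Lgr5) in the fasted pair. In the refed pair they stood between 6.92% (Glul) and 15.06% (Lgr5). Rhbg stood at 93.85% in the fasted and 92.13% in the refed pair. Before scaling, 6 of the 10 signals were higher in Drp1LiKO than in Cont in the fasted pair and 3 in the refed pair. Tbx3 was lower in the refed pair, and Axin2 stood higher in the fasted pair near the detection limit, on 1 dim probe above background in Drp1LiKO alone. In whole liver, fewer pericentral hepatocytes and less RNA of a gene per cell cannot be told apart. Past the 2-fold line in the fasted pair were 2 members that were higher (Rhbg and Axin2) and 1 that was lower (Slc1a2), where 7.67% of all genes measured were called higher and 4.94% lower (12.6% in all). In the refed pair 0 members were called higher and 2 lower (Glul and Tbx3), where the shares of all genes were 7.40% and 5.83% (13.2% in all). The median difference of the 10 members was -0.37 in the fasted and -0.69 in the refed pair, beside -0.09 and -0.06 over all genes measured.

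**Figure D1:**
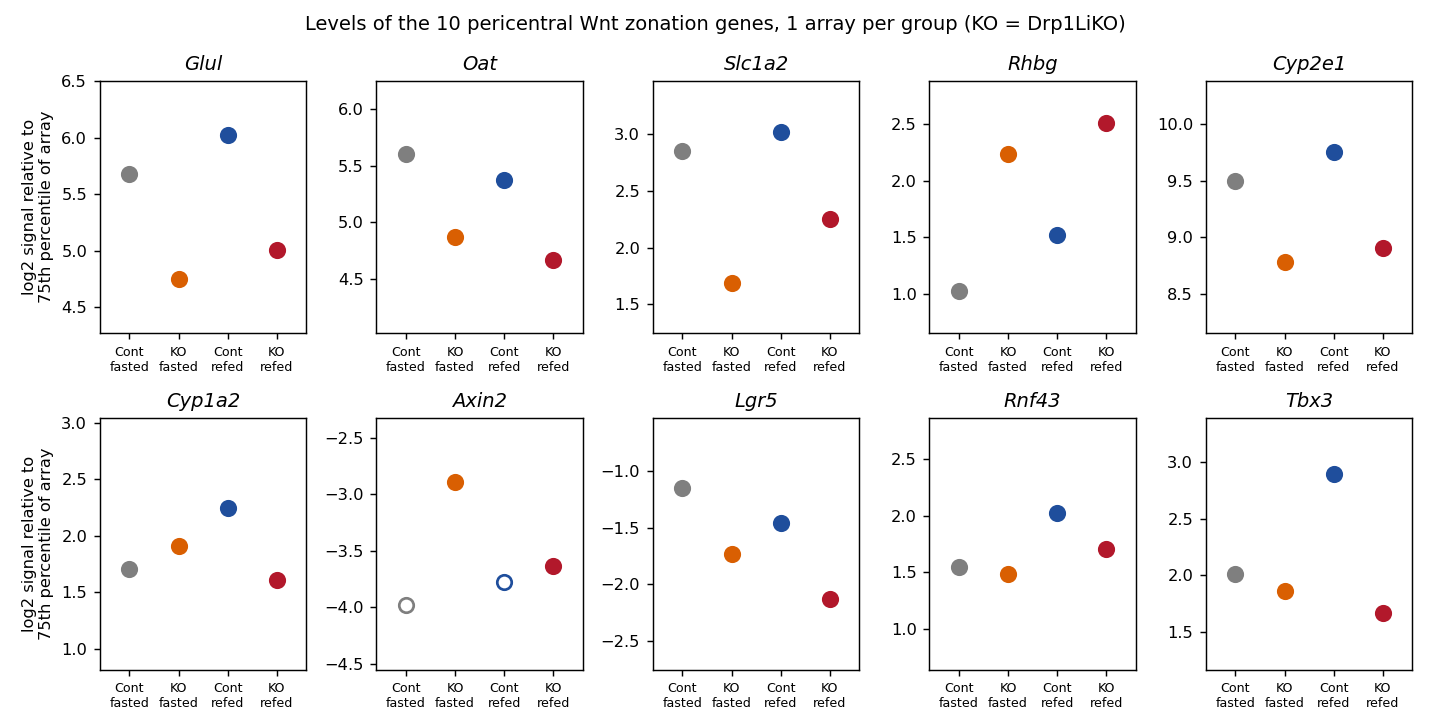
Log2 signal relative to the 75th percentile of the array (vertical axis, each panel spanning the same number of log2 units) for the 10 genes on the 4 arrays (KO, Drp1LiKO). Open circles are signals not well above background, which occurred for Axin2 in both Cont arrays. Both Drp1LiKO points lie below both Cont points for Glul, Oat, Slc1a2, Cyp2e1 and Lgr5 and above them for Rhbg. The share of all genes that separate by genotype in this way was not determined.

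Among the genes of nitrogen handling, Glul encodes glutamine synthetase, which joins ammonium to glutamate in the innermost pericentral cells. Its probe (chr1:155756765-155756824 in mm9, plus strand) gave relative signals of 51.2 in Cont fasted, 26.9 in Drp1LiKO fasted, 64.9 in Cont refed and 32.1 in Drp1LiKO refed. Both Drp1LiKO livers were below both Cont livers, by 1.90-fold in the fasted pair (-0.92, SE 0.20) and 2.02-fold in the refed pair (-1.02, SE 0.20). The refed difference alone was past the 2-fold line, and it fell short of it under every other scaling or background correction, with values from -0.84 (quantile normalization) to -0.97 (median scaling). The processed signal before scaling in Drp1LiKO was 0.825 of that in Cont in the fasted pair and 0.727 in the refed pair, and the 75th percentile by which the signals were divided was higher in Drp1LiKO in both pairs.

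Oat encodes ornithine aminotransferase, a mitochondrial enzyme that turns ornithine towards glutamate. It gave 48.6 in Cont fasted, 29.3 in Drp1LiKO fasted, 41.6 in Cont refed and 25.5 in Drp1LiKO refed (chr7:139749726-139749785, minus strand). The genotype differences of -0.73 (SE 0.20) and -0.71 (SE 0.20) were nearly equal in the 2 feeding states, and the groups did not overlap. Unscaled, the Drp1LiKO signal was 0.945 and 0.902 of that in Cont.

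Slc1a2 encodes a glutamate transporter of the plasma membrane that imports the substrate of glutamine synthetase. On its brightest probe (chr2:102617752-102617811, plus strand) the relative signal was 7.24 in Cont fasted, 3.23 in Drp1LiKO fasted, 8.14 in Cont refed and 4.77 in Drp1LiKO refed. The fasted Drp1LiKO liver was lowest, 2.24-fold below Cont (-1.17, SE 0.20), and the refed one 1.71-fold below (-0.77, SE 0.20). The other 2 probes of the gene lie further along the same strand (chr2:102622252-102622311 and chr2:102626380-102626439) and gave -1.17 (SE 0.22) and -1.71 (SE 0.32) in the fasted pair. In the refed pair they gave -0.75 (SE 0.23) and -1.26 (SE 0.44). For the last, the Drp1LiKO signal was not well above background. Its bound equalled the measured difference, so no lower limit is given. All 3 probes were therefore lower in Drp1LiKO in both feeding states.

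Rhbg encodes a membrane channel for ammonium of the Rhesus family, which in the liver is found on pericentral hepatocytes. Its signal went opposite to that of Glul: 2.04 in Cont fasted, 4.70 in Drp1LiKO fasted, 2.87 in Cont refed and 5.70 in Drp1LiKO refed (chr3:88047265-88047324, minus strand). Both Drp1LiKO livers were above both Cont livers. The differences were 1.21 (SE 0.20), or 2.31-fold, in the fasted pair and 0.99 (SE 0.20), or 1.99-fold, in the refed pair, the latter just short of the 2-fold line. Unscaled ratios were larger still, 3.62 and 2.92.

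Of the P450 genes, Cyp2e1, whose enzyme oxidises ethanol and paracetamol, had 2 probes. The brighter (chr7:147960628-147960687, plus strand) gave 722 in Cont fasted, 441 in Drp1LiKO fasted, 861 in Cont refed and 481 in Drp1LiKO refed, and the other (chr7:147956922-147956981) 307, 221, 354 and 193 in the same order. On both probes the Cont livers were above the Drp1LiKO livers. The brighter probe differed by -0.71 (SE 0.20) in the fasted and -0.84 (SE 0.20) in the refed pair, and the other by -0.47 (SE 0.20) and -0.87 (SE 0.20). Here the scaling mattered most. Unscaled, the brighter probe was at 0.957 of Cont in the fasted pair and 0.822 in the refed pair, and after quantile normalization, which makes the signal distributions of all arrays alike, the differences were -0.10 and -0.30.

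Cyp1a2, which encodes a P450 enzyme that oxidises caffeine and is induced by the aryl hydrocarbon receptor as well as by Wnt signals, did not follow Cyp2e1. Its signal was 3.27 in Cont fasted, 3.76 in Drp1LiKO fasted, 4.75 in Cont refed and 3.06 in Drp1LiKO refed (chr9:57528060-57528119, minus strand). The genotype difference was 0.20 (SE 0.20) in the fasted and -0.64 (SE 0.20) in the refed pair, and the groups by genotype overlapped. The refed minus the fasted genotype difference was -0.84 (SE 0.29).

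Among the Wnt pathway genes, Tbx3 encodes a T-box transcription factor that beta-catenin switches on in pericentral cells. It gave 4.03 in Cont fasted, 3.63 in Drp1LiKO fasted, 7.44 in Cont refed and 3.17 in Drp1LiKO refed (chr5:120134511-120134570, plus strand). The Cont refed liver stood above the other 3, which lay close together. The genotype difference was -0.15 (SE 0.20) in the fasted pair and -1.23 (SE 0.20), or 2.34-fold, in the refed pair, and these 2 values differed by -1.08 (SE 0.29), the largest such difference among the 10 genes. With 1 array a group this difference could not be tested.

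Lgr5 encodes a receptor for R-spondins that raises the response to Wnt. On the probe that was well above background (chr10:114887403-114887462, minus strand) it gave 0.450 in Cont fasted, 0.301 in Drp1LiKO fasted, 0.364 in Cont refed and 0.228 in Drp1LiKO refed. Both Cont livers were above both Drp1LiKO livers, by -0.58 (SE 0.21) and -0.68 (SE 0.23) as Drp1LiKO minus Cont. Unscaled, the Drp1LiKO signal was 1.05 of that in Cont in the fasted pair and 0.921 in the refed pair, so the fasted direction came with the scaling. A second probe, for an Ensembl transcript (chr10:114900686-114900745), stayed below the background criterion throughout and has no fold.

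Rnf43 encodes a ubiquitin ligase that removes Wnt receptors from the membrane and is itself switched on by Wnt. Its relative signal was 2.93 in Cont fasted, 2.80 in Drp1LiKO fasted, 4.06 in Cont refed and 3.25 in Drp1LiKO refed (chr11:87548958-87549017, plus strand). The genotype differences of -0.07 (SE 0.20) and -0.32 (SE 0.20) were both within 2 SE, and the sign of the fasted one turned under quantile normalization (0.03). Unscaled, the Drp1LiKO signal was 1.497 and 1.18 of that in Cont.

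Axin2 encodes a scaffold of the complex that degrades beta-catenin, and it is a target of the pathway in many tissues. Its 2 probes are shown by their first 30 bases, because they disagree.
Axin2 probe chr11:108812034-108812093: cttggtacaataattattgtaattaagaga
Axin2 probe chr11:108803927-108803986: tcctgggggaacagattattattgctactc
The first gave 0.0633 in Cont fasted, 0.134 in Drp1LiKO fasted, 0.0730 in Cont refed and 0.0804 in Drp1LiKO refed, and was well above background only in the 2 Drp1LiKO livers. In the fasted pair it was 2.09-fold higher in Drp1LiKO with the Cont signal set at its background bound (measured difference 1.09, SE 0.46). That bound holds no measurement error. The gene counts as measured through the Drp1LiKO arrays alone, so its call is not separate from its direction. In the refed pair the bound is below 1 and no fold is given. The second probe stayed below the background criterion throughout. With normexp background correction the fasted difference was 0.13 and over the median of both probes 0.39, so the call rests on 1 dim probe and was lost in both of these settings.

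The hepatocyte markers lay lower in Drp1LiKO together with these members. Of their 8 genes, 0 were called in any comparison. Of all genes, 12.6% (fasted) and 13.2% (refed) were called for genotype, and 8.93% (Cont) and 12.3% (Drp1LiKO) for refeeding. The median difference of the markers was -0.60 in the fasted and -0.47 in the refed pair, or -0.04 and -0.11 after quantile normalization. That step sets a value by its rank, which leaves the brightest genes little room to differ. Alb went from -0.52 to 0.05 in the fasted pair. Markers and dimmer members are thus not measured alike after it. The part of the hepatocyte markers in the lower levels of Glul, Oat, Cyp2e1, Slc1a2 and Lgr5 was not tested. After quantile normalization Glul was at -0.65 and -0.84 in the fasted and refed pair, Slc1a2 at -1.05 and -0.66, Lgr5 at -0.60 and -0.63 and Oat at -0.43 and -0.52. The same genes kept a negative sign relative to the 500 genes nearest in mean signal, an alternative added after the data were seen, with -0.62 and -0.90 for Glul, -0.99 and -0.68 for Slc1a2, -0.56 and -0.61 for Lgr5, -0.44 and -0.57 for Oat and -0.30 and -0.63 for Cyp2e1. Rhbg was at 1.29 and 1.06 on that scale.

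**Figure D2:**
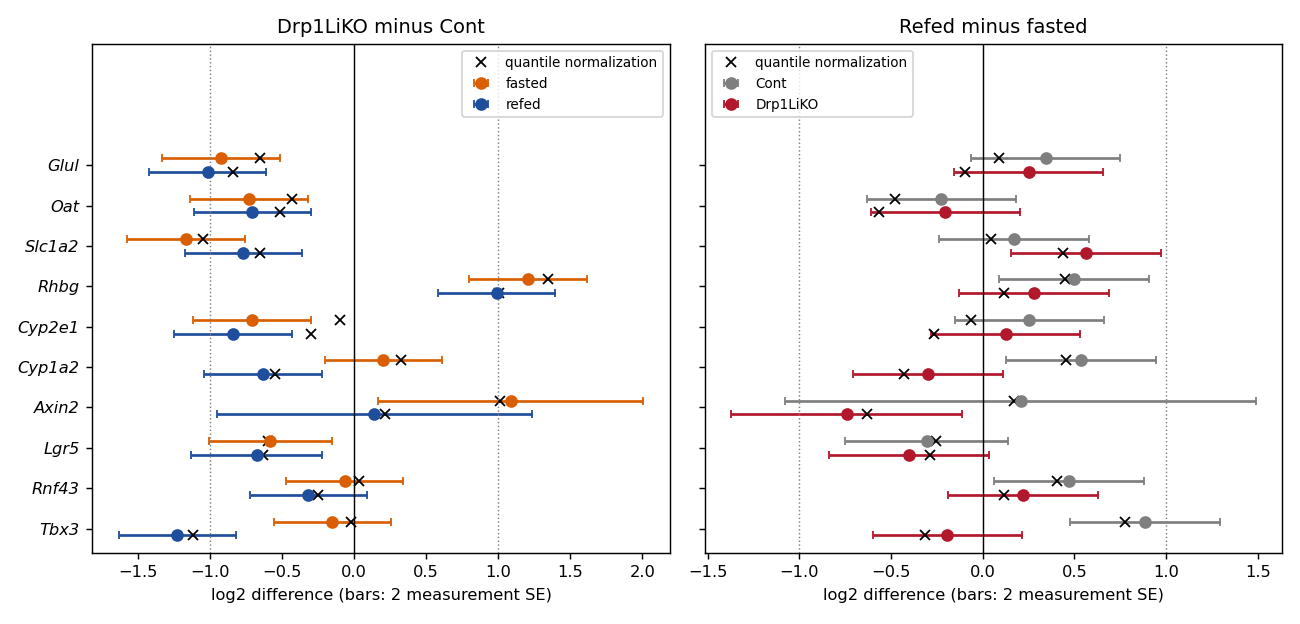
Log2 differences of the 10 genes (horizontal axis), Drp1LiKO minus Cont on the left and refed minus fasted on the right, with bars of 2 measurement SE on each side that hold no spread between mice. Crosses give the value after quantile normalization and dotted lines mark 2-fold. The genotype differences of Rhbg and Slc1a2 were little moved by the scaling, and that of Cyp2e1 was moved towards 0.

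Since no group has a second array, genotype was tested by limma with additive terms for the genotype and the feeding state, in which any interaction counts as error and 1 residual degree of freedom is left. Of 16744 genes tested, 0 (0%) passed an adjusted p of 0.05 for genotype, with 4746 at an unadjusted p under 0.05 and a smallest adjusted p of 0.0614. Rhbg had an effect of 1.099 (SE 0.15) with an adjusted p of 0.102 in limma, and Glul one of -0.97 (SE 0.14) with the same adjusted p. The limma adjusted p was 0.107 for Slc1a2 and Cyp2e1, 0.109 for Oat, 0.120 for Lgr5, 0.256 for Tbx3, 0.261 for Axin2, 0.452 for Rnf43 and 0.616 for Cyp1a2. Glul, Oat, Slc1a2, Cyp2e1 and Lgr5 had a negative and Rhbg a positive difference in both feeding states. Tbx3 was lower in the refed pair, and its fasted difference of -0.15 (SE 0.20) was within the error. Cyp1a2 changed sign, and no common direction is given for Axin2 and Rnf43, whose sign turned with the processing in 1 of the pairs. When limma was run on the 14447 genes that met the background criterion in all 4 arrays, it called 1214 genes, among them 5 of the 9 members in it (adjusted p 0.0360 for Rhbg, 0.0366 for Glul, 0.0417 for Slc1a2, 0.0455 for Cyp2e1 and 0.0481 for Oat). On the same 16744 genes, limma with an intensity trend called 2 members (adjusted p 0.0442 for Rhbg and 0.0447 for Glul), with normexp it called 3 (adjusted p 0.0319 for Rhbg, 0.0373 for Glul and 0.0489 for Slc1a2), and with quantile normalization or without the feeding term it called 0. These calls therefore depend on the setting.

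Refeeding brought no member past the 2-fold line in either genotype, where 3.88% of all genes measured were called higher and 5.05% lower in Cont (8.93% in all), and 5.42% and 6.91% in Drp1LiKO (12.3% in all). In Cont, 8 of the 10 genes had a higher signal after refeeding, with a median of 0.30 beside 0.11 over all genes. That median was 0.13 with quantile normalization and 0.15 relative to the 500 nearest genes, Cyp2e1 was at -0.06 and -0.07 there, and unscaled 4 of the 10 signals were higher. In Drp1LiKO the median was -0.03 beside 0.08. Tbx3 had the widest difference in Cont (0.88, SE 0.20), followed by Cyp1a2 (0.54, SE 0.20), Rhbg (0.50, SE 0.20) and Rnf43 (0.47, SE 0.20), each over 2 SE. In Drp1LiKO the members over 2 SE were Slc1a2 (0.57, SE 0.20) and Axin2 (-0.74, SE 0.31, both signals well above background), which was at -0.14 with normexp. Tbx3 was at -0.19 (SE 0.20) and Cyp1a2 at -0.30 (SE 0.20) there. The refeeding and the genotype comparisons share arrays, so the high Cont refed signal of Tbx3 enters both. For refeeding, limma called 0 of 16744 genes (4414 at an unadjusted p under 0.05, smallest adjusted p 0.169), none of the members among them.

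Over the 4 arrays, Glul was set beside each of the 14446 other genes that met the background criterion in all of them, by the root of the summed squared differences of log2 levels centred on each gene's mean. The 5 genes nearest to it were the transcripts TC1630414, 2310065F04Rik and 1500004F05Rik, the histone gene H2ac4 and C8g, a subunit of complement component C8, at distances from 0.02 to 0.06, where the median gene was at 1.004. Among the members, Cyp2e1 (0.22) and Slc1a2 (0.25) were nearest, and 1.17% and 1.57% of genes lay nearer. Tbx3 and Oat followed at 0.57, Lgr5 at 0.73, Rnf43 at 0.78 and Cyp1a2 at 0.86, while Axin2 (1.73) and Rhbg (2.07) were further away than most genes. The points are 4 arrays without replicates and the distance includes the scaling of each array, so this is a description of these livers. Axin2 was set beside 14447 genes in the same way, and Slc2a12, Zc3h12d, Emilin1, Gsn and Raet1b lay nearest, at 0.13 to 0.15, with both Cont signals of Axin2 at or near background.

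Other pericentral hepatocyte genes were listed beside the 10 members. Of 20 listed, 19 were on the array and all 19 were measured. In the fasted pair 2 were called lower (Cyp2c37 and Cyp2c50) and 1 higher (Gstm3), or 15.8% beside 12.6% of all genes, with a median of -0.50. In the refed pair 6 were lower and 1 was higher, or 36.8% beside 13.2%, with a median of -0.75. The general hepatocyte markers had medians of -0.60 and -0.47 with all 8 negative in both pairs, and whether the pericentral list differs from them was not tested. After quantile normalization 1 was lower in the fasted pair, where Cyp2c50 stood at -0.84, and 4 in the refed pair, where Por (-0.82) and Cyp2c54 (-0.91) fell short. Cyp2c37, a P450 that oxidises arachidonic acid, was at -1.34 (SE 0.20) and -1.38 (SE 0.20), and its near neighbour in sequence Cyp2c50 at -1.13 (SE 0.20) and -1.20 (SE 0.20), and probes of such close relatives can share targets. Cyp3a11, the main drug-oxidising P450 of mouse liver, was at 0.23 (SE 0.20) and then -1.83 (SE 0.20), and in Drp1LiKO it was at -1.79 (SE 0.20) after refeeding. Against the rest, Cyp7a1, the rate-limiting enzyme of bile acid synthesis, was at -0.17 (SE 0.20) in the fasted and 1.61 (SE 0.20) in the refed pair. Its refeeding difference in Cont was -1.03 (SE 0.21), or -0.98 with normexp, and Cyp8b1, which sets the share of cholic acid, was lower after refeeding in Drp1LiKO by -1.67 (SE 0.20). Gstm3, a glutathione transferase, was at 1.22 (SE 0.20) in the fasted pair, and its name was chosen after the values were seen. After quantile normalization the medians were -0.19 and -0.60.

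The 20 periportal genes had a median of -0.15 in the fasted and -0.04 in the refed pair, or 0.18 and 0.13 after quantile normalization, where the all-gene medians were 0.00 and 0.02. Of these 20, 1 was called higher and 1 lower in the fasted pair, beside 12.6% of all genes called in either direction. In the refed pair 2 were higher and 3 lower, beside 13.2% of all genes. Cdh1, the E-cadherin of periportal hepatocytes and bile duct cells, was higher in both, by 1.01 (SE 0.21) and 1.74 (SE 0.23), of which the fasted one was 0.80 with normexp. Mfsd2a, a lysophospholipid transporter that fasting induces, was at 0.25 (SE 0.20) and -2.56 (SE 0.20), and was lower after refeeding in Drp1LiKO by -3.14 (SE 0.20). Hsd17b6, a steroid dehydrogenase, was at 0.62 (SE 0.20) and -1.90 (SE 0.20), and G6pc, which releases glucose from its phosphate, at 0.23 (SE 0.20) and -1.90 (SE 0.20). The urea cycle gene Cps1 at 1.24 (SE 0.20) in the refed pair and Pigr at -1.13 (SE 0.20) in the fasted pair (-0.85 after quantile normalization) were the remaining calls, named after their values were seen. Whether the pericentral and periportal lists differ in their shift was not tested.

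**Figure D3:**
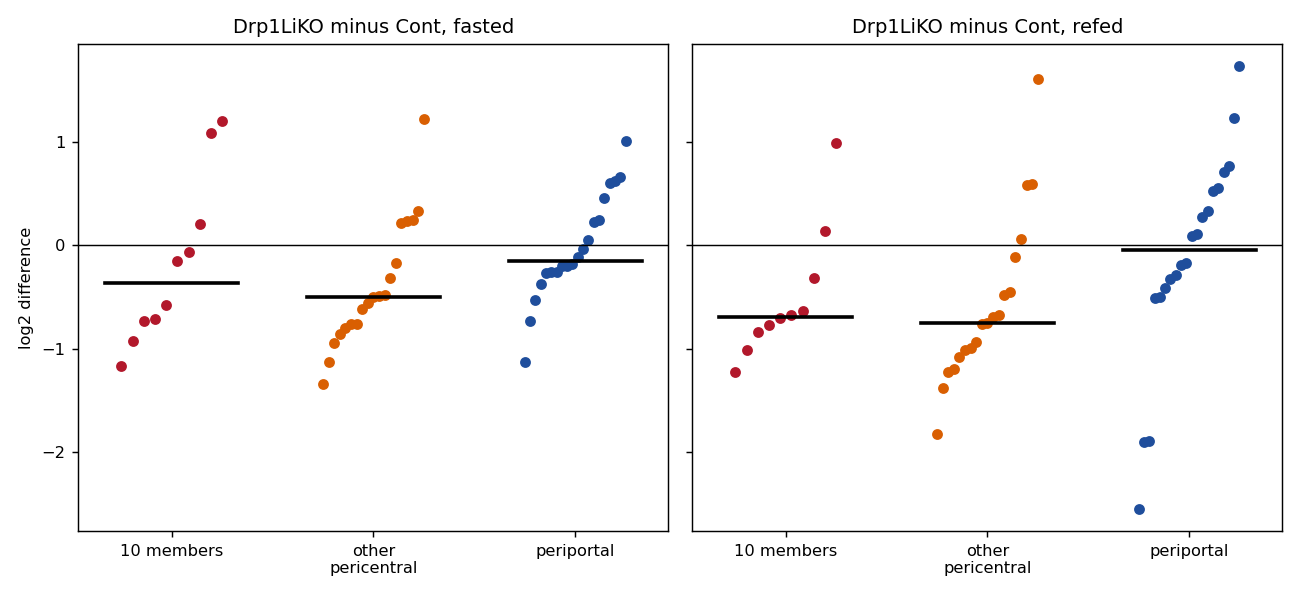
Log2 differences of Drp1LiKO minus Cont (vertical axis) in the fasted and the refed pair for the 10 members, 19 other pericentral and 20 periportal hepatocyte genes, each point a gene and each bar the median of its list. The medians of the pericentral lists lie at -0.37 and -0.50 in the fasted and -0.69 and -0.75 in the refed pair, and those of the periportal list at -0.15 and -0.04.

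In the 5 lists upstream in the Wnt pathway, 4 of 34 measured genes were called in the fasted pair (11.8%, beside 12.6% of all genes) and 3 in the refed pair (8.82%, beside 13.2%). Of 10 ligands and R-spondins 7 were measured, and Wnt2, one of the main ligands of the central vein, was below the background criterion in all arrays. Wnt9b, the other, was well above background in 2 arrays, with 0.28 (SE 0.41) in the fasted pair. Rspo3, the R-spondin of the central vein, was at 0.49 (SE 0.21) in the fasted and -0.03 (SE 0.21) in the refed pair. The 1 call, Wnt5a in the fasted pair, had a bound below 1 and gets no fold. Of 11 receptors, 8 were measured with a median of -0.53 and -0.40, and Fzd5 alone was called, well above background in only 2 arrays and lower in Drp1LiKO in the refed pair by at least 2.25 on the log2 scale (-1.29 with normexp). Among 10 genes of beta-catenin and its destruction complex, Dvl3, a dishevelled protein that passes the signal from the receptor, was lower in both pairs, at -1.12 (SE 0.20) and -1.10 (SE 0.20), and short of 2-fold after quantile normalization, at -0.93 and -0.95. Ctnnb1, beta-catenin itself, was at 0.16 (SE 0.20) and 0.08 (SE 0.20), and the tumour suppressor Apc at -0.96 (SE 0.21) and -0.85 (SE 0.21), short of 2-fold. Of 8 Tcf and Lef factors and coactivators 7 were measured, and the 1 call was Tcf7 in the fasted pair, higher by at least 0.36, which was above background in that array alone and stood at -0.03 with normexp. Of 8 secreted inhibitors 2 were measured, Dkk3 at 1.56 (SE 0.21) and 0.67 (SE 0.21), and Wif1, which was well above background only in Drp1LiKO refed and at least 0.43 higher there than in Cont refed (0.35 with normexp).

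Of 8 other target genes of the pathway, 7 were measured. Ccnd1 and Myc, which drive cell division and answer to many other signals, were higher in both pairs, Ccnd1 by 1.98 (SE 0.20) and 1.27 (SE 0.20) and Myc by 1.63 (SE 0.22) and 2.60 (SE 0.35), with 1.34 for the last under normexp. Sp5, a transcription factor, and Znrf3, a ligase related to Rnf43, were lower in the refed pair, at -1.22 (SE 0.21) and -1.76 (SE 0.31), and stood at -0.16 (SE 0.21) and 0.55 (SE 0.31) in the fasted pair. With normexp both fell short of 2-fold in the refed pair, Sp5 at -0.997 and Znrf3 at -0.98, and Znrf3 was at -0.05 in the fasted pair. Both were highest in the Cont refed liver, as was Tbx3, with refeeding differences in Cont of 1.20 (SE 0.21) for Sp5 and 1.32 (SE 0.32) for Znrf3, or 0.98 and 0.69 with normexp. Nkd1, an inhibitor of dishevelled, was also highest there (0.79, SE 0.21), with genotype differences of 0.00 (SE 0.21) and -0.72 (SE 0.21). Notum, an enzyme that inactivates Wnt, was at 0.02 (SE 0.20) and -0.26 (SE 0.20). Since a single Cont refed array carries all these values, the shared order of Tbx3, Sp5, Znrf3 and Nkd1 rests on 1 liver RNA. Nkd1 and Notum were not past the threshold, and their names were chosen after the values were seen, as were those of Rspo3, Wnt2, Wnt9b, Ctnnb1 and Apc.

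**Figure D4:**
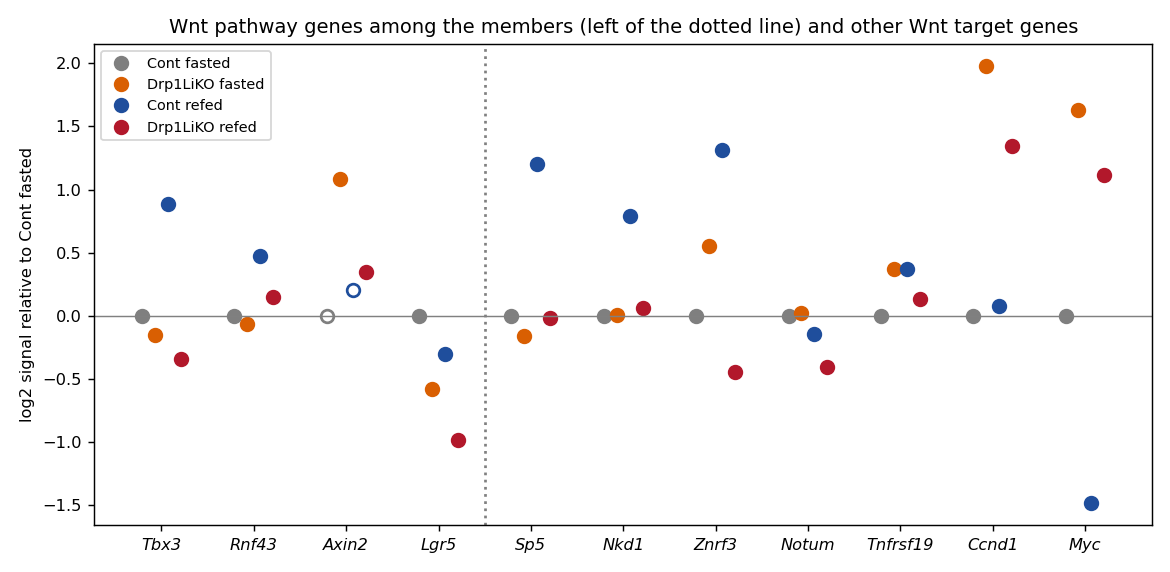
Log2 signal relative to the Cont fasted array (vertical axis) for the 4 Wnt pathway genes among the members and 7 other Wnt target genes on the 4 arrays, with open circles for signals not well above background. The Cont refed point is the highest of the 4 for Tbx3, Rnf43, Sp5, Nkd1 and Znrf3, and the Drp1LiKO points lie highest for Axin2, Ccnd1 and Myc.

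Beside Cyp1a2, the aryl hydrocarbon receptor genes gave little to set it against. Of 6 listed, 4 were measured, and Cyp1a1, the most responsive target of the receptor, was below the background criterion in all arrays. The receptor gene Ahr was at 0.22 (SE 0.20) and 0.59 (SE 0.20). Cyp1b1 was well above background in Drp1LiKO fasted alone, and at least 0.95 higher there than in Cont fasted (0.50 with normexp).

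Markers of other liver cells were recorded beside these levels, as summed relative signals in the order Cont fasted, Drp1LiKO fasted, Cont refed and Drp1LiKO refed. Those of 10 endothelial genes, whose cells supply the Wnt ligands, were 57.5, 49.6, 60.7 and 41.7. Macrophage genes (9 of 9 measured) summed to 95.5, 111, 106.9 and 187, and cholangiocyte genes (6 of 7) to 0.66, 1.25, 0.69 and 1.57. Stellate cell genes (8 of 8) gave 2.67, 5.82, 3.64 and 3.59, lymphocyte genes (6 of 7) 5.03, 4.06, 6.01 and 4.97, and neutrophil genes (5 of 5) 5.56, 3.54, 6.60 and 10.4. Of the 5 adipocyte markers, Cfd alone was measured, with 4.35, 0.18, 22.0 and 0.37, and Adipoq, Plin1, Lep and Retn were below the background criterion in all arrays. Endothelial sums were lower and macrophage and cholangiocyte sums higher in Drp1LiKO in both feeding states, but a sum follows its brightest genes. Of the 10 endothelial genes 6 had a positive genotype difference in the fasted pair (median 0.30, with Tek at 1.42, Lyve1 at 0.93 and Pecam1 at 0.84, against -0.81 for the bright Kdr) and 4 in the refed pair (median -0.13). Of the 9 macrophage genes 6 were positive in the fasted pair (median 0.17), with Csf1r, Clec4f and Timd4 negative, and 9 in the refed pair (median 0.57). Of the 6 cholangiocyte genes 5 were positive in each pair. The part of these cells in the levels of the 10 genes was not tested.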

How the data were processed

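Liver RNA of 4 groups was measured on 1 array each, all on 1 slide and in 1 scan. The intensity values are the processed signals deposited by the authors in the scanner files: per the file headers, Agilent Feature Extraction 10.7.1.1 subtracted the background and no normalization between arrays was made, whereas the submitters' processing notes name version 9.5.1.1. The authors' table of normalized values, deposited as linear intensities and put on the log2 scale here, was used as an alternative. It equalled a quantile normalization of these signals within 0.0343 on the log2 scale for probes with a single spot. Probe positions are in mm9, and where a probe lies within its gene was not determined.

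Repeated spots (399 probes with 10 spots, median SD from 0.0619 to 0.0706) were averaged after outlier spots were left out, which removed 37 probes of 39429. Signals were scaled to the 75th percentile of 43020 gene spots. For a gene with several probes, the probe that met the scanner's criterion for a signal well above background most often was read, then the brightest. Names were updated by RefSeq accession for 26761 of 28389 probes. A dim signal was bounded by the lowest signal well above background of its array, or kept as measured where that was higher. Such a bound holds no measurement error. The precision is limited by having 1 array in each group. The test was limma 3.58.1 in R 4.3.3 on genes that met this criterion in 2 arrays or more, with Benjamini-Hochberg adjustment, and other steps used Python 3.11.15 with numpy 2.4.6 and pandas 2.3.3. Both the 2-fold rule and limma were run on simulated data with larger changes than those of the members and with drawn noise. These runs check the steps alone and not their power for the members or the spread between mice. Genes of the pathway lists were named if called alike in both pairs, or else as the 3 largest calls of a list. The members, the lists and the named genes' rule were chosen with earlier results of these data known. Alternatives were median scaling, quantile normalization, normexp with an offset of 50, the authors' values, the median over probes, other filters and thresholds, and for limma a model without the other factor or with an intensity trend. The other experiments of the study were not used here.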

Additional observations from a re-analysis of the deposited data

How the results depend on the processing

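No test exists within a pair of arrays, and p-values come from limma alone, so these alternatives show how far the values move with the processing and not how they vary between mice. No paired analysis was possible within a comparison because each group has 1 array, and feeding state is already a term of the limma model. Members called higher in the fasted pair were 1 with normexp, with the median over probes and with genes measured on all arrays, and members called lower were 0 relative to the 500 genes nearest in signal (added after the data were seen) and 4 at 1.5-fold. Of all 18963 genes measured, 365 were called higher in that pair with normexp and 1366 with the median over probes. Among the 14447 genes measured on all arrays 397 were higher. Called lower were 868 of the 18963 relative to the 500 nearest genes and 2490 at 1.5-fold. In the refed pair, 1 was higher (Rhbg) with median scaling, quantile normalization, the authors' table, the 500 nearest genes and at 1.5-fold, and 1 was lower (Tbx3, the call of Glul being lost) with median scaling, quantile normalization, normexp, the authors' table and the 500 nearest genes, against 7 at 1.5-fold. Of all 18963 genes, 2580 were higher there at 1.5-fold and between 1478 and 1510 in the other settings named for Rhbg. Called lower were 2676 at 1.5-fold, 688 with normexp and between 989 and 1015 in the remaining settings named for Tbx3. At 1.5-fold, 1 member was called higher after refeeding in Cont and 1 lower in Drp1LiKO. The share of all genes called for refeeding at that threshold is not given here, so these counts are not read as a result. The fasted median of the members was -0.061 with quantile normalization and the authors' table, -0.16 relative to the 500 nearest genes and -0.58 over genes measured on all arrays. After refeeding in Drp1LiKO it was -0.28, -0.28 and -0.33 in the first 3 of these. The refed genotype median stayed between -0.53 and -0.73 throughout.

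With quantile normalization, the medians of the pericentral list were -0.19 in the fasted pair and -0.12 and -0.46 for refeeding in Cont and Drp1LiKO, those of the periportal list 0.18 in the fasted pair and -0.29 for refeeding in Drp1LiKO, and those of the 2 measured Wnt inhibitors 0.74 and 2.03 for genotype and 1.55 for refeeding in Drp1LiKO. With the median over probes, the Cont refeeding medians were 0.69 for ligands, -0.18 for receptors and 0.078 for other Wnt targets, the Tcf and Lef medians -0.044 (fasted) and -0.086 (refed), and the refed median of the aryl hydrocarbon receptor genes 0.63. For genotype, limma called 812 genes with normexp, 1 without the feeding term, 474 with an intensity trend and 1214 over genes measured on all arrays, with 3, 0, 2 and 5 members among them. With quantile normalization it called 0, with 4296 genes at an unadjusted p under 0.05. For refeeding it called 15 genes with normexp and 15 over genes measured on all arrays, and 0 members. The cause was not tested. Values for single members changed sign in some settings for Rnf43 in the fasted pair, Axin2 in the refed pair, Glul, Cyp2e1, Lgr5 and Slc1a2 for refeeding.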
